A study of Mus musculus with 4 samples.

Results

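The genes described here encode the Id proteins (*Id1*, *Id2* and *Id3*), the E proteins (*Tcf3*, *Tcf4* and *Tcf12*) and the Zeb factors (*Zeb1* and *Zeb2*) of mouse CD4 T cells. These 8 genes were taken by name as members of 3 protein families, by a rule that sets no threshold on a measured value. The choice was made with earlier results of these data known. They are 8 of the 24369 genes listed for each library, and all 8 were among the 14143 genes with enough counts to be tested. The cells were naive CD4 T cells from the spleens of wild-type C57BL/6 mice, activated on plates coated with anti-CD3 in the presence of anti-CD28 and IL-2, without polarizing cytokines. On day 2 of culture they were transduced with a retrovirus, either the empty vector MSCV-IRES-eGFP (EV RV) or the same vector carrying *Tox* (Tox RV), and on day 5 GFP+ cells were sorted after restimulation. Both groups were therefore activated, virus-infected and GFP+, and differed in the *Tox* insert, which the viral promoter drove independently of the endogenous gene. RNA-seq was done on 2 libraries per group (EV RV replicates 1 and 2, Tox RV replicates 1 and 2), each group standing for 2 mice, and the comparison asks how forced Tox expression changes RNA levels in otherwise unpolarized CD4 T cells.

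E proteins are basic helix-loop-helix transcription factors that bind DNA as dimers at the E-box, a short sequence of the pattern CANNTG. Id proteins share the helix-loop-helix but lack the basic region, so an Id protein paired with an E protein cannot hold DNA, and the balance between the families sets how much E protein activity a lymphocyte has. In T cells this balance is known for its part in thymic development and in the choice between effector and memory or follicular helper fates. Zeb factors are zinc finger repressors that recognise the E-box-like sequence CAGGTG, recruit corepressors and can compete with E proteins for such sites.

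To show the DNA that the families themselves could read at the genes with the largest fold changes here, the bases before the RefSeq transcription start of *Id2* and *Tcf3* are printed (GRCm38.p6, minus strand for both, written 5′ to 3′ along the gene). The capitals mark the E-box. Only the bases outside the exons that GENCODE annotates for the 8 genes are shown, which is chr12:25096254-25096342 for *Id2* and chr10:80433648-80433885 for *Tcf3*. Exons of other genes were not checked.
Id2: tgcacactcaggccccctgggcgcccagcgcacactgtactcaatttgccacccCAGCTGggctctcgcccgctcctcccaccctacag
Tcf3: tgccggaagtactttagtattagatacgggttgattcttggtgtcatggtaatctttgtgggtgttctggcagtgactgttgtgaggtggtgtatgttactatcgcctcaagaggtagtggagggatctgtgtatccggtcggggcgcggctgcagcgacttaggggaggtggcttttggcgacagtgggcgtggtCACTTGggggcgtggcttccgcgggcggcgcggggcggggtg
The *Id2* stretch lies in an intron of the longest annotated transcript, whose next exon covers the other 161 bases of the 250-base window. Each window held 1 E-box, CAGCTG in *Id2* starting 196 bases before the start and CACTTG in *Tcf3* starting 54 bases before it. RefSeq windows were used for 5 of the 8 genes. Of these, *Tcf12* held 1 E-box in 2 of its 3 windows, while *Id3* and the 4 windows of *Zeb2* held none. All 250 bases of the *Id3* window were exon bases of that gene. The *Zeb2* windows held 0 to 191 exon bases and the *Tcf12* windows 1 to 250. As a pattern, CANNTG reads the same on both strands, and 66.2% of the 32851 windows of 250 bases contained at least 1 E-box. The Zeb-preferred form, CAGGTG or CACCTG on the opposite strand, was found in 17.2% of all windows and in none of the 5 genes. These are matches of letters in a fixed window.

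The libraries held 46989997 to 74548723 expected counts, RSEM's estimates of reads per gene. *Tox* itself was listed at 7.22 and 3.37 TPM (the share of all transcripts that belong to a gene, so a level already divided by transcript length) in EV RV, against 69.1 and 56.9 in Tox RV, higher in both Tox RV libraries as their labels say (log2 fold change 3.68, SE 0.38, adjusted p = 0.490 in edgeR and 1.65e-20 in DESeq2). EV RV replicate 1 stood apart from the other libraries. It lay at -53.8 on the first principal component of all genes tested, against 5.70 to 25.8 for the others, and 24.7% of its counts belonged to the ribosomal RNA gene *Rn45s*, against 7.14% to 11.97%. The fold changes of the 8 genes and the medians of the gene lists are therefore given with and without it. The part of the ribosomal share was tested only by recomputing TPM without *Rn45s*. Markers of CD4 T cells summed to 2211 to 3146 TPM. B cell markers summed to 1.74 to 2.32 TPM with *Ms4a1* and *Pax5* at 0, CD8 markers to 3.32 to 4.98 TPM, myeloid markers to 5.87 to 8.28 TPM and innate-like T cell markers to 0.06 to 0.13 TPM. NK markers summed to 54.3 and 9.90 TPM in EV RV and 31.3 and 6.82 TPM in Tox RV, higher in replicate 1 of each group. Of these 6 markers, 3 had enough counts to be tested. *Klrd1* was at 33.2 and 4.21 TPM in EV RV and 21.9 and 4.26 TPM in Tox RV, while *Ncr1* and *Klra8* were at 0 throughout.

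None of the 8 genes passed an adjusted p of 0.05 in edgeR's quasi-likelihood test, which called 0 of the 14143 genes (0%). It did not call the overexpressed *Tox* either (adjusted p = 0.490 in edgeR), so the lack of a call says little about the 8 genes. At an unadjusted p under 0.05, 2 of the 8 passed, *Tcf3* and *Id2*, against 512 or 3.62% of all genes tested. DESeq2 called 22 genes (0.156%), none of them among the 8. The Tox RV libraries both lay above both EV RV libraries for 1 of the 8 genes, *Id2*, which is true of 18.6% of all genes. They both lay below for 4 of the 8, *Id1*, *Tcf3*, *Tcf4* and *Tcf12*, which is true of 17.4% of all genes. The remaining 3, *Id3*, *Zeb1* and *Zeb2*, overlapped between groups. Since the 8 genes were chosen with earlier results of these data known, setting them beside all genes is a description and no test.

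**Figure D1:**
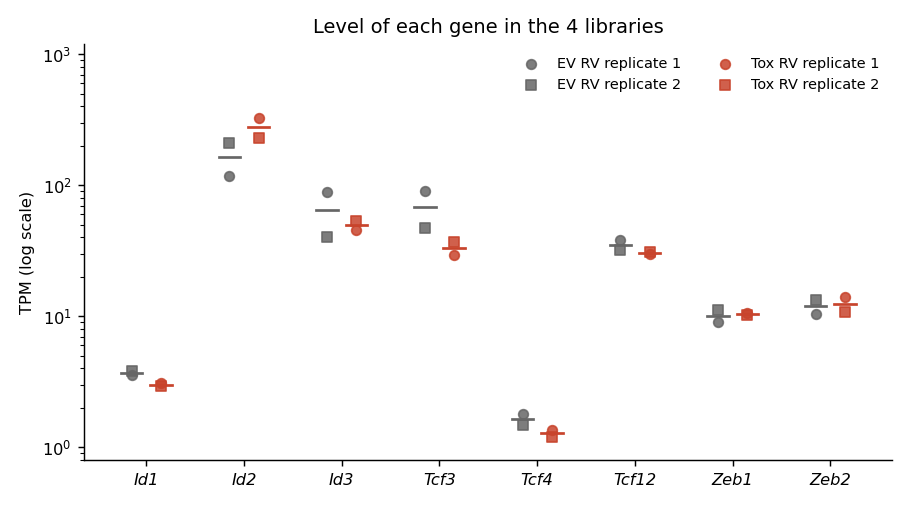
Level of each of the 8 genes in the 4 libraries (TPM, log axis), with grey symbols for EV RV, red symbols for Tox RV, circles for replicate 1, squares for replicate 2 and a line at each group's mean. *Id2* sits above every other gene in all 4 libraries, both Tox RV points of *Tcf3* lie below its EV RV points, and *Zeb1* and *Zeb2* stay between 9.04 and 14.0 TPM.

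*Id2* encodes the Id protein associated with effector T cells and innate lymphocytes, and it was the most abundant of the 8 genes. Its level was 118 and 209 TPM in EV RV replicates 1 and 2 and 329 and 231 TPM in Tox RV replicates 1 and 2, a mean of 163.5 ± 64.3 (SD, n = 2) against 279.9 ± 68.9 (SD, n = 2). Both Tox RV libraries were above both EV RV libraries, but EV RV replicate 2 and Tox RV replicate 2 were close together. The log2 fold change of Tox RV over EV RV was 0.85 (SE 0.34, 95% interval 0.0019 to 1.69), equal to 1.80-fold, with an unadjusted p of 0.0496 and an adjusted p of 0.897 in edgeR. The gap between the 2 EV RV libraries was as large as this difference, since replicate 1 lay 0.90 below replicate 2 on the log2 scale. Dropping EV RV replicate 1 brought the log2 fold change to 0.46, and dropping EV RV replicate 2 brought it to 1.37. When TPM was recomputed without *Rn45s*, it was 0.79. The gene spans chr12:25093799-25097140 on the minus strand of GRCm38.

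*Id3*, the Id gene linked to naive, memory and follicular helper cells, went the other way between the EV RV libraries. Its level was 89.5 and 40.1 TPM in EV RV, against 45.6 and 53.7 TPM in Tox RV. The Tox RV values fell between the EV RV values. Its log2 fold change was -0.29 (SE 0.36, 95% interval -1.18 to 0.61, adjusted p = 0.905 in edgeR), and it was -0.73 without EV RV replicate 2. Without EV RV replicate 1 it was 0.35, so replicate 1 decided its sign. *Id3* lies at chr4:136143497-136145755 on the plus strand.

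*Id1*, an Id gene induced by BMP signals and best known outside T cells, was scarce. Only 70 and 143 counts were assigned to it in EV RV, against 100 and 77 in Tox RV, or 3.53 and 3.80 TPM against 3.10 and 2.91 TPM. Both Tox RV libraries were slightly lower, by a log2 fold change of -0.21 (SE 0.31, 95% interval -0.96 to 0.55, adjusted p = 0.913 in edgeR), with little spread inside either group. It was -0.30 without EV RV replicate 1. Its position is chr2:152736251-152737410 on the plus strand. *Id4*, the remaining mammalian Id gene, had 0 counts in every library.

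The make-up of the Id pool differed between libraries mainly through EV RV replicate 1. *Id2* supplied 55.9% of the summed Id TPM in that library and 82.6% in EV RV replicate 2, compared with 87.1% and 80.3% in Tox RV. *Id3* supplied 42.4%, 15.9%, 12.1% and 18.6% in the same order. *Id1* never exceeded 1.67%. The *Id2* to *Id3* ratio was 1.32 and 5.21 in EV RV against 7.21 and 4.31 in Tox RV, overlapping between groups. On the log2 scale the groups' ratios differed by 1.09 with all libraries and by 0.098 without EV RV replicate 1.

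*Tcf3*, the gene for the E2A proteins, had the largest fold change of the 8 genes and the smallest p. It was at 89.8 and 47.4 TPM in the EV RV libraries and at 29.2 and 36.7 TPM in the Tox RV libraries, with means of 68.6 ± 30.0 (SD, n = 2) and 33.0 ± 5.35 (SD, n = 2). The counts were 7165 and 7175 against 3793 and 3915, so counting error was small beside the spread between libraries. Both Tox RV libraries were below both EV RV libraries, and the EV RV libraries were 0.85 apart on the log2 scale. The log2 fold change was -0.96 (SE 0.31, 95% interval -1.74 to -0.19), 0.513-fold of EV RV, at an unadjusted p of 0.0227 and an adjusted p of 0.897 in edgeR, which placed *Tcf3* at rank 206 of the 14143 genes by p (*Id2* was at rank 506). Recomputing TPM without *Rn45s* gave a log2 fold change of -0.99. Dropping EV RV replicate 1 gave -0.48. Dropping EV RV replicate 2 gave -1.33, which passed the threshold (adjusted p = 0.0393 in edgeR), with the lone EV RV library assumed to vary like Tox RV. DESeq2 gave adjusted p-values of 0.420 for *Tcf3* and 0.876 for *Id2*. *Tcf3* spans chr10:80409514-80433647 on the minus strand.

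*Tcf12* encodes HEB, the E protein that pairs with E2A in T cells, and it varied less than *Tcf3*. The levels were 38.0 and 32.2 TPM in EV RV and 29.7 and 31.2 TPM in Tox RV. The Tox RV values were lower without overlap, but the log2 fold change was only -0.12 (SE 0.17, 95% interval -0.53 to 0.29, adjusted p = 0.910 in edgeR) and it turned to 0.0070 when counts were scaled by library totals instead of TMM. It was -0.043 without EV RV replicate 1. The *Tcf12* interval leaves out a fall of the size estimated for *Tcf3*, but it overlaps the *Tcf3* interval of -1.74 to -0.19. Whether the 2 fold changes differ was not tested. *Tcf12* covers chr9:71842688-72111871 on the minus strand.

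*Tcf4*, the E protein gene most used by plasmacytoid dendritic cells, was the least abundant of the 8 per length. It was at 1.78 and 1.48 TPM in EV RV and at 1.35 and 1.20 TPM in Tox RV, on 287 to 503 counts a library. Both Tox RV values were lower, with a log2 fold change of -0.26 (SE 0.22, 95% interval -0.81 to 0.29, adjusted p = 0.897 in edgeR), and -0.17 without EV RV replicate 1. Plasmacytoid dendritic cell markers summed to 165.5 and 137.1 TPM in EV RV and to 132.3 and 113.3 TPM in Tox RV, of which nearly all was *Bst2*, a gene that activated T cells also express, while the defining gene *Siglech* stayed at 0.02 to 0.21 TPM. In bulk RNA, fewer cells of a type and less RNA per cell cannot be told apart. *Tcf4* spans chr18:69343356-69689079 on the plus strand.

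*Tcf3* and *Tcf12* made up almost all E protein RNA, and their order changed between libraries. *Tcf3* was 69.3% and 58.4% of the summed E protein TPM in EV RV, against 48.4% and 53.1% in Tox RV. *Tcf12* was 29.4% and 39.8% in EV RV, against 49.3% and 45.1% in Tox RV. The *Tcf3* to *Tcf12* ratio was 2.36 and 1.47 in EV RV against 0.982 and 1.18 in Tox RV, lower in both Tox RV libraries by 0.79 on the log2 scale (0.45 to 1.13 lower when any 1 library was dropped). A ratio inside a library does not depend on how libraries are scaled. The *Tcf3* to *Tcf4* ratio, 50.4 and 32.0 against 21.6 and 30.6, was also lower in both.

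**Figure D2:**
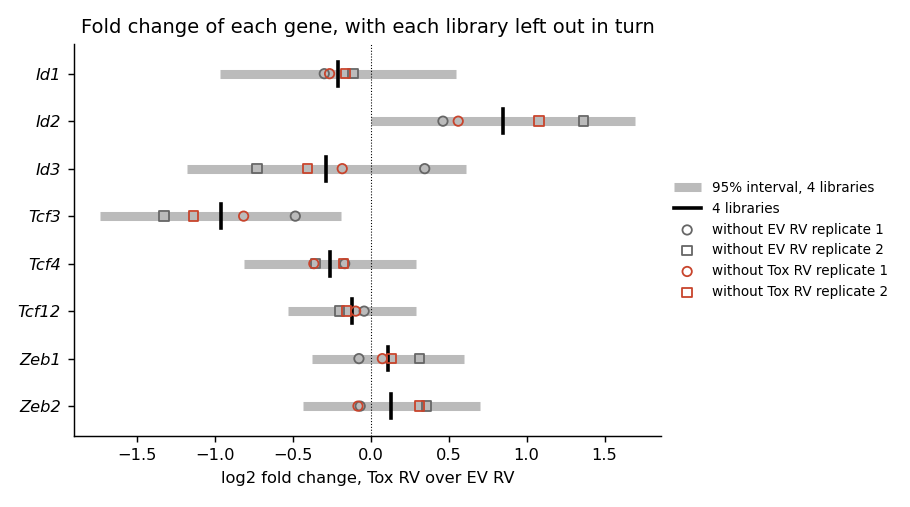
Log2 fold change of Tox RV over EV RV for each gene (black tick) with its 95% interval from edgeR (grey bar), and the fold change after dropping 1 library (symbols). The intervals of *Id2* and *Tcf3* lie to one side of 0, with *Id2* starting at 0.0019, and the symbols of *Id3*, *Zeb1* and *Zeb2* fall on both sides of 0.

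Summed by family, Id RNA was higher and E protein RNA lower in Tox RV, in both cases without overlap. The Id sum was 211 and 253 TPM in EV RV and 377 and 288 TPM in Tox RV, a mean of 232 ± 29.6 (SD, n = 2) against 333 ± 63.3 (SD, n = 2). The E protein sum was 129.6 and 81.0 TPM in EV RV and 60.2 and 69.2 TPM in Tox RV, a mean of 105 ± 34.3 (SD, n = 2) against 64.7 ± 6.32 (SD, n = 2). Each sum mostly repeats its leading gene, *Id2* or *Tcf3*.

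The ratio of the Id sum to the E protein sum was 1.63 and 3.12 in EV RV against 6.27 and 4.16 in Tox RV. Every library thus had more Id than E protein RNA per length, and both Tox RV libraries had a higher ratio than both EV RV libraries. The mean log2 ratio was 1.17 ± 0.66 (SD, n = 2) in EV RV and 2.35 ± 0.42 (SD, n = 2) in Tox RV, a difference of 1.18. Dropping any 1 library gave a difference of 0.71 to 1.65. An exact permutation test of 2 libraries against 2 cannot go below a two-sided p of 0.333, and no other test of this ratio was run. The ratio of the leading genes, *Id2* over *Tcf3*, went from 1.31 and 4.41 in EV RV to 11.3 and 6.30 in Tox RV, 1.81 higher on the log2 scale (0.93 to 2.68 with a library left out). It was not among the ratios planned. Its direction follows from *Id2* being higher and *Tcf3* lower in both Tox RV libraries, so it is no separate result.

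**Figure D3:**
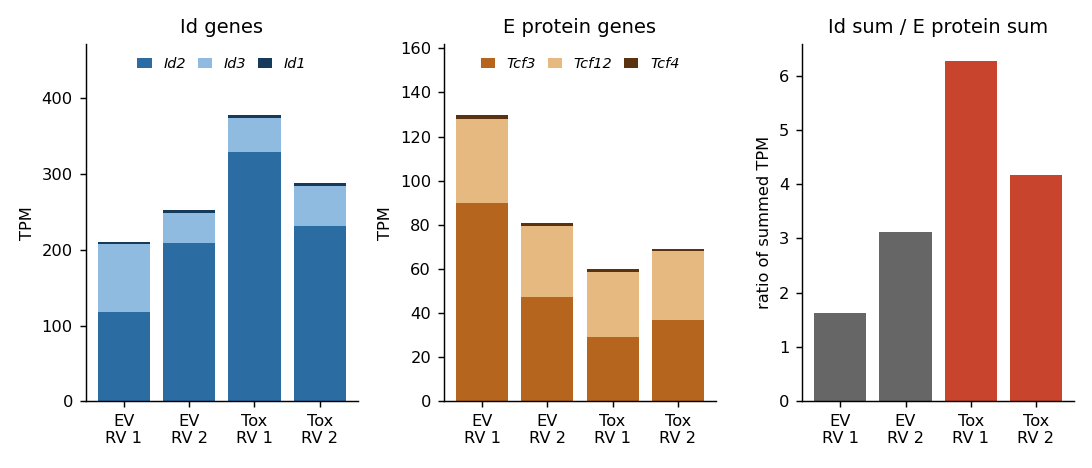
Stacked TPM of the Id genes (left) and the E protein genes (middle) in each library, and the ratio of the sums (right; grey EV RV, red Tox RV), all on linear axes from 0. The ratio runs from 1.63 in EV RV replicate 1 to 6.27 in Tox RV replicate 1, and *Id2* and *Tcf3* are the parts of the bars that differ most in height between groups.

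*Zeb1*, a repressor that is associated with memory T cells and with silencing of *Il2*, did not differ between groups beyond the spread of the libraries. It was at 9.04 and 11.2 TPM in EV RV and at 10.5 and 10.2 TPM in Tox RV. The Tox RV values lay inside the EV RV range, and the log2 fold change was 0.11 (SE 0.20, 95% interval -0.38 to 0.60, adjusted p = 0.927 in edgeR). It was -0.08 without EV RV replicate 1. The gene lies at chr18:5591860-5775467 on the plus strand. It shares 198 exon bases with *Gm10125* on the opposite strand, a gene with 21 to 42 counts a library, against 1291 to 3037 for *Zeb1*.

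*Zeb2*, the family member that accompanies terminal effector differentiation, also overlapped between groups. It was at 10.5 and 13.3 TPM in EV RV and at 14.0 and 10.8 TPM in Tox RV. The log2 fold change was 0.13 (SE 0.23, 95% interval -0.44 to 0.70, adjusted p = 0.922 in edgeR), and it was negative without EV RV replicate 1 (-0.07) or Tox RV replicate 1 (-0.08). *Zeb2* spans chr2:44983632-45117395 on the minus strand and overlaps *Zeb2os*, its antisense RNA, over 653 exon bases. *Zeb2os* varied far more than *Zeb2*, with 175 and 26 counts in EV RV against 74 and 357 in Tox RV (log2 fold change 0.87, SE 1.21, adjusted p = 0.910 in edgeR). Whether strand was used in counting is not stated, so reads of the shared bases cannot be assigned with certainty to either gene. The highest *Zeb2os* count was in a library with one of the lower *Zeb2* levels. *Mir5129*, which also overlaps *Zeb2*, had 0 counts.

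The *Zeb1* to *Zeb2* ratio was 0.862 and 0.840 in EV RV against 0.751 and 0.945 in Tox RV, differing by -0.014 on the log2 scale and overlapping between groups. *Zeb1* supplied 42.9% to 48.6% of the summed Zeb TPM.

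Ordered by TPM in EV RV, the genes ran *Id2*, *Tcf3*, *Id3*, *Tcf12*, *Zeb2*, *Zeb1*, *Id1* and *Tcf4*. In that order *Tcf3* and *Id3* overlapped, as did *Zeb2* and *Zeb1*. In Tox RV the order was *Id2*, *Id3*, *Tcf3*, *Tcf12*, *Zeb2*, *Zeb1*, *Id1* and *Tcf4*, with an overlap between *Tcf3* and *Tcf12*. The group means thus kept the same places except that *Tcf3* and *Id3* changed places.

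The abundance-weighted transcript length, which moves when a gene's isoform mix moves, changed little. *Id1*, *Id2*, *Id3* and *Zeb1* have 1 transcript each in the annotation used for counting, so their length is fixed. *Tcf3* has 8 transcripts, and its weighted length varied by 0.75 bases (0.0227%) over the 4 libraries. The lengths of *Tcf12* (5 transcripts), *Zeb2* (2) and *Tcf4* (2) varied by 0.322%, 0.138% and 0.832%, the last through Tox RV replicate 1 at 7303 bases against 7243 to 7249 in the others. The alternative E2A isoforms differ by exons of similar length, which this measure may not separate.

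Other genes of the network were followed as 8 lists, and with all 4 libraries no member of any list passed an adjusted p of 0.05 in edgeR. Without EV RV replicate 2, the only EV RV library left was replicate 1, which stood apart. In that fit *Crebbp*, *Ep300*, *Gatad2b*, *Foxo1*, *Ccr7*, *Bach2* and *Klf2* had log2 fold changes of -2.25 to -0.93. They were named after their values in it were seen, and the list medians in it ran from -0.48 to 0.50. Without Tox RV replicate 1, the log2 fold change of *Cdh3* was 4.56. With all 4 libraries, the median log2 fold change of all genes tested was 0.0036. For comparison, the list medians ran from -0.17 to 0.26, and with scaling by library totals, which moved the median of all genes to 0.12, they ran from -0.038 to 0.37.

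Of 24 other helix-loop-helix genes, potential partners of E and Id proteins, 6 had enough counts, 3 higher and 3 lower in Tox RV (median 0.03). The median was -0.083 without EV RV replicate 1, and -0.24 to -0.07 over the libraries left out. *Bhlhe41*, a repressor that binds E-boxes, was lower in both Tox RV libraries, at 1.80 and 0.83 TPM in EV RV and 0.34 and 0.53 TPM in Tox RV (log2 fold change -1.51, SE 0.45, unadjusted p = 0.0161, adjusted p = 0.897 in edgeR). Its relative *Bhlhe40* was the most abundant of the list by a wide margin and overlapped, at 381 and 243 TPM in EV RV against 322 and 214 TPM in Tox RV. *Msc*, *Lyl1* and *Hes6* had log2 fold changes of 0.50, -0.79 and 0.19.

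Among cofactors and turnover factors of E and Id proteins, 12 of 15 genes were tested, 5 higher and 7 lower (median -0.12). Without EV RV replicate 1 the split was 3 and 9 (median -0.054), and the medians with 1 library left out ran from -0.21 to -0.014. *Huwe1*, a ubiquitin ligase that acts on Id proteins, was at 93.2 and 76.8 TPM in EV RV and at 63.3 and 61.0 TPM in Tox RV (log2 fold change -0.37, adjusted p = 0.897 in edgeR). The coactivator genes *Crebbp* and *Ep300* had log2 fold changes of -0.63 and -0.55, carried by EV RV replicate 1, where *Ep300* was at 39.0 TPM against 18.7 to 20.0 in the other libraries. *Usp1*, which removes ubiquitin from Id proteins, and the adaptor gene *Ldb1* were at 0.15 and 0.10.

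All 15 corepressor genes of the Zeb factors were tested, 5 higher and 10 lower (median -0.12). The split was 7 and 8 without EV RV replicate 1 (median -0.018) and 8 and 7 with scaling by library totals. *Ctbp1*, the best-known Zeb partner, overlapped between groups at 125 to 150 TPM (log2 fold change -0.0015). *Chd4* and *Mta2*, of the same deacetylase complex as *Hdac1*, were at 0.06 and 0.19, and *Hdac1*, *Mbd3* and *Gatad2b* at -0.31, -0.41 and -0.74. *Gatad2b* was at 43.9 TPM in EV RV replicate 1 against 17.1 to 18.0 TPM in the other libraries.

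Factors of the signals that induce Id genes were split into 4 higher and 13 lower among 17 tested of 19 (median -0.15). That split did not hold without EV RV replicate 1, where it was 10 and 7 (median 0.098), or with scaling by library totals, where it was 8 and 9. Without EV RV replicate 2 the median was -0.39. *Stat5b*, which carries IL-2 signals, was at 89.7 and 80.9 TPM in EV RV and at 62.7 and 63.4 TPM in Tox RV (log2 fold change -0.35, adjusted p = 0.897 in edgeR), and *Stat5a* had a log2 fold change of -0.27. *Egr2*, of the receptor-induced Egr family that activates *Id3* in thymocytes, had a log2 fold change of 0.36, and *Acvr2a*, an activin receptor gene, was at -0.45. *Acvr2a* was at 11.1 TPM in EV RV replicate 1 against 6.11 to 6.71 TPM in the other libraries.

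Of 22 genes linked to E protein activity in lymphocytes, 19 were tested, 7 higher and 12 lower (median -0.08), and 1 in each direction had an unadjusted p under 0.05, against 3.62% of all genes. The split turned to 12 and 7 without EV RV replicate 1 (median 0.10) and to 10 and 9 with library totals or the replicate block, and the median was -0.47 without EV RV replicate 2. *Ptcra*, the pre-T cell receptor gene and a classic E protein target, was lower in both Tox RV libraries, at 11.6 and 9.47 TPM in EV RV and 6.84 and 6.21 TPM in Tox RV (log2 fold change -0.60, SE 0.23, unadjusted p = 0.0399, adjusted p = 0.897 in edgeR). *Dntt*, the terminal transferase gene, was higher at a low level, 0.25 and 0.71 TPM against 1.31 and 1.10 TPM (unadjusted p = 0.0497, adjusted p = 0.897 in edgeR). *Cd4* was at 218 and 174 TPM against 250 and 229 TPM, a log2 fold change of 0.38. *Ets1*, *Socs1* and *Notch3* were at 0.27, -0.18 and -1.90, the last with at most 0.39 TPM in any library.

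Known targets of Zeb repression, mainly epithelial genes and *Il2*, were mostly at low levels. Of 19 genes, 11 were tested, 7 higher and 4 lower (median 0.26). The median was 0.43 without EV RV replicate 1, 0.09 without Tox RV replicate 1, 0.12 with the replicate block and 0.035 with limma on log2(TPM + 1). *St14*, the most abundant, overlapped at 10.2 and 13.0 TPM against 11.9 and 14.3 TPM, and *Il2* was at 2.46 and 1.62 TPM against 4.16 and 0.85 TPM. *Cldn4* (log2 fold change -2.64) did not exceed 0.60 TPM. *Cdh3* was at 0.72 and 0 TPM in EV RV and 0.76 and 7.34 TPM in Tox RV, so its higher Tox RV mean rested on 1 library. *Cldn7* and *Epcam* were at 0.69 and -0.13.

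The effector genes that accompany *Zeb2* split 4 higher and 6 lower among 10 tested of 11 (median -0.07). Both split and sign depended on single libraries, with 2 higher and 8 lower without EV RV replicate 1 (median -0.46), 6 and 4 without EV RV replicate 2 (0.50), 1 and 9 without Tox RV replicate 1 (-0.47) and 7 and 3 without Tox RV replicate 2 (0.27). *Gzmb*, the granzyme B gene, was at 433 and 1526 TPM in EV RV and 1152 and 675 TPM in Tox RV. *Ifng* was at 17.2 and 160 TPM in EV RV and 140 and 69.0 TPM in Tox RV. EV RV replicate 1 was the lowest library for both genes, as it was for *Id2* and *Zeb2*. *Tbx21*, *Prdm1*, *Ccl5* and *S1pr5* had log2 fold changes of -0.09, 0.16, -0.93 and -0.80. *Ccl5* was at 63.6 TPM in EV RV replicate 1 against 18.4 to 26.2 TPM in the other libraries.

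All 12 memory and naive genes that accompany *Id3* or *Zeb1* were tested, 4 higher and 8 lower (median -0.17). The split was 8 and 4 without EV RV replicate 1 (median 0.52) and 2 and 10 without EV RV replicate 2 (median -0.48). *Ccr7*, the receptor for lymph node homing, was at 628 and 304 TPM in EV RV and 161 and 229 TPM in Tox RV (log2 fold change -1.16, SE 0.36, unadjusted p = 0.0193, adjusted p = 0.897 in edgeR). Its order over the libraries was that of *Tcf3*. *Tcf7*, the gene for the memory factor TCF-1, overlapped at 194 and 51.6 TPM against 109 and 143 TPM, with EV RV replicate 1 highest, as for *Id3*. *S1pr1*, *Eomes* and *Cd27* had log2 fold changes of -0.93, -0.39 and 0.62. *S1pr1* was at 37.1 TPM in EV RV replicate 1 against 9.21 to 15.2 TPM in the other libraries.

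**Figure D4:**
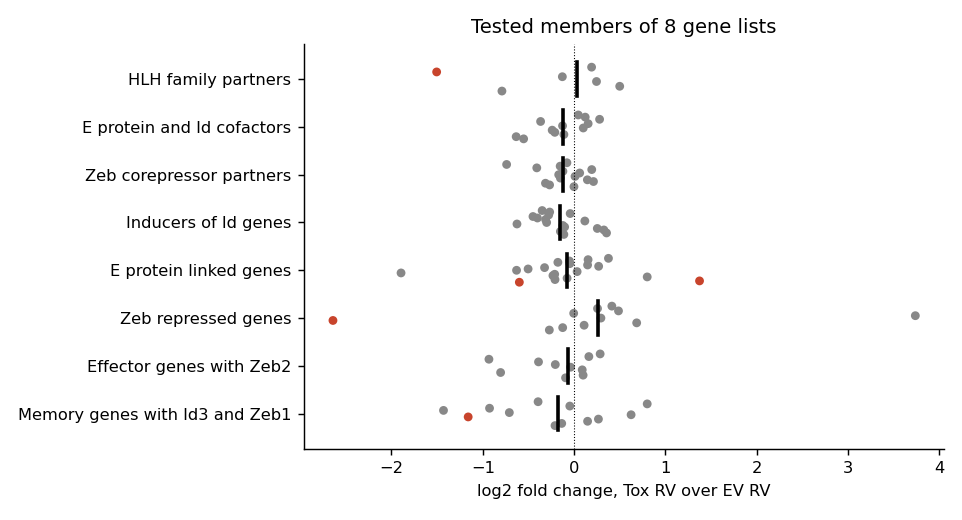
Log2 fold change of Tox RV over EV RV for the tested genes of the 8 lists (1 point a gene, spread vertically only to separate them), with a black line at each list's median and red points for an unadjusted p under 0.05. The medians lie between -0.17 and 0.26, and the red points are *Bhlhe41*, *Ptcra*, *Dntt*, *Cldn4* and *Ccr7*.

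The genes most like each member were found by the smallest root mean square difference of log2 CPM (depth-scaled counts), each gene centred on its mean over the 4 libraries. With only 4 libraries many genes share a pattern by the arrangement of those values alone, so these are descriptions. *Id2* was nearest to *Crtam*, an adhesion molecule gene of cytotoxic and activated T cells, at 0.085, followed by *Olfr1373* and *Zfp57*. *Tcf3* was nearest to *C6* at 0.050, then *Ifnz* and *Ntn1*. *Id3* was nearest to *Ccdc62* at 0.018, and the cell cycle inhibitor gene *Cdkn1b* was among its 3 nearest at 0.031. The levels of the other members varied less, and their nearest genes were *Dennd1b* for *Id1*, *4632404H12Rik* for *Tcf4*, *Lsm12* for *Tcf12*, *Ddx56* for *Zeb1* and *Galc* for *Zeb2*, at 0.0055 to 0.031.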

How the data were processed

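The authors used FastQC for read quality, Bowtie for alignment to the transcripts of mm10 and RSEM for quantification, 1 library per file. Versions and strand use are not given in the sources used here. Expected counts, as deposited by the authors, are RSEM's unnormalized read estimates per gene. TPM, as deposited, is RSEM's share of transcripts per gene, scaled to the same total in each library, and the files also give abundance-weighted lengths. Length minus effective length was 149 in every library, as for single reads of 150 bases. A series table named TPM whose columns do not reach the total of a TPM table was not used.

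Rounded expected counts were tested with edgeR 4.0.16 under R 4.3.3 (filterByExpr, minimum count 10, TMM, glmQLFit and glmQLFTest, Benjamini-Hochberg over all 14143 genes, no block). The common biological coefficient of variation was 0.232 and the prior degrees of freedom 3.77. The labels group the libraries, but p-values measure only the spread between these 2 and 2 libraries. The fits were tested on simulated data in which no library stood apart, and no result here rests on that. Alternatives were DESeq2 1.42.0 (the test in the authors' methods), other scalings, no filter, a replicate block, limma 3.58.1 on log2(TPM + 1) and log2(TPM + 0.1), leaving out each library, and, added after seeing the data, TPM without *Rn45s*. An edgeR fold change is of scaled counts (CPM), while levels between genes are compared in TPM.

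The 8 genes and the gene lists were chosen with earlier results of these data known. Named in each list were called genes, otherwise the 3 with the smallest unadjusted p and the 3 with the highest mean TPM, and for each of the 8 genes the overlapping genes and the 3 of most similar pattern. Positions are from GENCODE M21 (GRCm38, the same assembly as mm10) and promoter windows from RefSeq (GRCm38.p6).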

Additional observations from a re-analysis of the deposited data

How the results depend on the processing

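The count of genes called was 0 with all 4 libraries and 22 with DESeq2, 22 with no filter, 16 with the replicate block and 1 to 393 when a single library was dropped, with the lowest count without EV RV replicate 1 and the highest without EV RV replicate 2. It was 0 with median-of-ratios scaling, library totals, limma on either TPM scale and TPM without *Rn45s*. Signs turned for *Id3*, *Zeb1* and *Zeb2* without EV RV replicate 1, for *Zeb2* without Tox RV replicate 1 and for *Tcf12* with library totals (log2 fold change 0.0070), and the cause was not tested. With a library left out, *Id3* was at -0.73 to 0.35, *Zeb1* at -0.076 to 0.31 and *Zeb2* at -0.082 to 0.36. *Id2* kept its sign throughout, at 0.46 to 1.37 with a library left out and 0.79 to 0.94 otherwise, as did *Tcf3*, at -1.33 to -0.48 and -0.99 to -0.81, and only *Tcf3* without EV RV replicate 2 passed the threshold (adjusted p = 0.0393 in edgeR). The difference in log2 Id to E protein ratio was 0.71 to 1.65 with a library left out and 1.18 to 1.20 from CPM or without *Id1* and *Tcf4*. Without a filter the median of the helix-loop-helix list was -1.18, since genes of very low counts entered. The lowest counts were those of *Id1* (70 to 143) and *Tcf4* (287 to 503).

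Replicate numbers are shared between groups, but the labels do not tie a number to a mouse, and the deviations of same-numbered libraries had a correlation of 0.406. With the replicate block *Id2* was at 0.89 (adjusted p = 0.331 in edgeR) and *Tcf3* at -0.91 (adjusted p = 0.256 in edgeR). The block called none of the 8 genes.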
